A study of Homo sapiens with 60 samples.

Results

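Banhasasim-tang was compared with Yijung-tang, both given at 500 µg/mL, in HT29 cells. These are herbal formulas of Korean medicine, and HT29 is an established human colorectal cancer line with features of both absorptive and mucus-secreting epithelium. The libraries were chosen by label: 1 library of Banhasasim-tang at high dose and 2 of Yijung-tang at high dose, 3 of the 60 libraries in all. Every group received a 70% ethanol extract, or its vehicle, for 24 h. Both formulas were also given at 20 and 100 µg/mL, with 1 library of Banhasasim-tang and 2 of Yijung-tang at each dose, and all 9 formula libraries carry the number of library set 14. Coptidis Rhizoma given alone was used to define a response to look for: 2 libraries at 320 µg/mL against 2 at 12.8 µg/mL, with 2 more at 64 µg/mL, all in library set 11. Zizyphi Fructus, the jujube fruit, stood in set 11 as well, with 2 libraries at each of 20, 100 and 500 µg/mL. The 3 vehicle libraries received DMSO, given as 0.1% in the sample labels and as 2% in the series design. They carry library set D1, which holds no formula or herb library. Vehicle levels are printed beside the others without a test, and treatment and library set differ together there. The labels do not say that libraries of a group came from separate cultures, so p-values measure only the spread between libraries, which may be technical.

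By the textbook recipes, Banhasasim-tang contains Coptidis Rhizoma along with pinellia, scutellaria, ginger, ginseng, licorice and jujube, and Yijung-tang contains ginseng, atractylodes, ginger and licorice. The labels give neither recipe nor the amount of Coptidis Rhizoma in the formula. The formulas differ in several herbs, so the herb behind a difference cannot be told apart here. Coptidis Rhizoma is known for its alkaloids, above all berberine. A pair of sensor pathways is central to what follows. The aryl hydrocarbon receptor is a transcription factor that binds planar aromatic compounds, pairs with ARNT and switches on xenobiotic-metabolising enzymes such as CYP1A1 and CYP1B1. ATF4 is a transcription factor made when amino acids run short or the endoplasmic reticulum or mitochondria are stressed, and it raises genes for making, importing and charging amino acids, together with brakes such as TRIB3 and DDIT4.

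The start-site regions of 4 genes that the results turn on are shown, from RefSeq on GRCh38.p14, each running from 250 bases before the start site to 50 bases after it. CYP1A1 and TIPARP stand for the aryl hydrocarbon receptor genes, and CHAC1 and ASNS for the ATF4 genes. Capitals mark matches on either strand to GCGTG, the core bound by the aryl hydrocarbon receptor with ARNT, or to TGATGNAA, a form of the amino acid response element bound by ATF4 with a C/EBP partner.
CYP1A1: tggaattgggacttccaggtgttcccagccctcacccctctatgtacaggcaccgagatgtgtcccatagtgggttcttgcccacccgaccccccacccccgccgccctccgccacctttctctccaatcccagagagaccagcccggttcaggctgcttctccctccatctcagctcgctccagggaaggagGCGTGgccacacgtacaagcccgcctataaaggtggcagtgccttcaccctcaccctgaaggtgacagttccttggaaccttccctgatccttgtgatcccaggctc
TIPARP: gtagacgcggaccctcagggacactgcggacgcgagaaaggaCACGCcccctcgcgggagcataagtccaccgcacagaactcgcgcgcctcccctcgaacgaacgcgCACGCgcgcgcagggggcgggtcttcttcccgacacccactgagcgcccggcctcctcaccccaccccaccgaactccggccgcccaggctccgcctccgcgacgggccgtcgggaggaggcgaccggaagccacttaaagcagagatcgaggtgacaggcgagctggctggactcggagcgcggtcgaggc
CHAC1: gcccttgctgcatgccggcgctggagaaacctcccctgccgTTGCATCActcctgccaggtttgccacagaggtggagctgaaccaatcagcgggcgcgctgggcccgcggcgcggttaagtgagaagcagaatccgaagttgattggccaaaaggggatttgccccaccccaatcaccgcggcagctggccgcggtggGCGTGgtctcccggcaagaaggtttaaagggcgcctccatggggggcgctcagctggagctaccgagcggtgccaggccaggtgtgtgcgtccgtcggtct
ASNS: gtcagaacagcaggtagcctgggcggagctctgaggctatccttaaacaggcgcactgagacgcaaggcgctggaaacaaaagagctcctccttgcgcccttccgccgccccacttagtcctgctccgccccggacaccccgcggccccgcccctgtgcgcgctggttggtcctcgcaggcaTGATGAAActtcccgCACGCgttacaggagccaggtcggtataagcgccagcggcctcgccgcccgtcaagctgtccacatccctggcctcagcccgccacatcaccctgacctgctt

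The CYP1A1 region lies at chr15:74725479-74725778 on the minus strand and the TIPARP region at chr3:156674340-156674639 on the plus strand. The CHAC1 region lies at chr15:40953221-40953520 on the plus strand and the ASNS region at chr7:97872359-97872658 on the minus strand. Counting the start site as base 1 and the base before it as -1, CYP1A1 held GCGTG at bases -57 to -53, and TIPARP held it on the opposite strand at bases -208 to -204 and -142 to -138. CHAC1 held TGATGNAA on the opposite strand at bases -209 to -202 and GCGTG at bases -51 to -47. ASNS held TGATGNAA at bases -68 to -61 and GCGTG on the opposite strand at bases -53 to -49. GCGTG is short and was present in 36.5% of 35116 RefSeq start-site regions of this length, whereas TGATGNAA was present in 3.62%. Of the genes listed below with a region in that table, GCGTG was present in 5 of 5 aryl hydrocarbon receptor targets, 13 of 20 ATF4 genes, 5 of 10 amino acid transporters and 12 of 16 aminoacyl-tRNA synthetases, so it was not particular to the receptor targets. TGATGNAA was present in 0 of 5, 3 of 20, 3 of 10 and 6 of 16 of the same lists. A match is a description of the letters in this window and no measure of binding.

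Library totals ran between 18.1 and 36.7 M counts with a median of 24.1 M, and stood at 27.0 M for Banhasasim-tang high and at 23.2 and 25.0 M for Yijung-tang high. Levels are given in CPM, the counts of a gene per 1 M counts of its library after TMM scaling (trimmed mean of M-values), and are not corrected for gene length. Marker lists are summed without that scaling. Markers of colon epithelium summed to 10530 CPM in the Banhasasim-tang library and to between 10950 and 11240 CPM in the Yijung-tang libraries, with none of the 10 at 0. Of 8 fibroblast markers, COL1A2, COL3A1, DCN, PDGFRB and THY1 had no count in any of the 3 libraries, and the list summed to 2.15 CPM in Banhasasim-tang against 1.84 to 2.20 CPM in Yijung-tang. Of 5 endothelial markers, CDH5 and KDR had no count, and the list summed to 3.11 CPM in Banhasasim-tang against 2.72 to 3.04 CPM in Yijung-tang. Of 8 leukocyte markers, MS4A1 and PTPRC had none. The leukocyte list summed to 1512 CPM in Banhasasim-tang and to between 1895 and 2004 CPM in Yijung-tang, nearly all from LYZ, a gene that intestinal epithelium also expresses. In bulk RNA of this kind, fewer cells of a type and less RNA per cell cannot be told apart. Of the other groups, Zizyphi Fructus medium replicate 3 stood apart from its partner, with 38.8% of its counts in mitochondrial messenger RNAs. It is in no comparison here, but it enters the estimate of the spread, so counts are given with and without it.

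Cells given Banhasasim-tang at high dose had higher levels of aryl hydrocarbon receptor targets, of the ATF4 amino acid stress genes, of amino acid transporters and of several aminoacyl-tRNA synthetases than cells given Yijung-tang at the same dose, and far more mitochondrial ribosomal RNA. TXNIP, ARRDC4, NOX1, GABRP and NR0B2 were lower. In all, 177 of the 16022 genes tested were higher in Banhasasim-tang (1.1%) and 75 were lower (0.468%) at an adjusted p under 0.05, 1.57% in either direction. At an unadjusted p under 0.05 there were 1458 of the 16022, the background for the unadjusted counts of gene lists given later. Since Banhasasim-tang had 1 library per dose, its spread was taken to be that of the other groups. Without Zizyphi Fructus medium replicate 3 the same 177 and 75 genes were called again, within totals of 412 higher (2.57%) and 235 lower (1.47%). Leaving out Yijung-tang high replicate 2 gave 108 higher and 41 lower, and leaving out replicate 1 gave 126 higher and 47 lower.

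CYP1A1, the inducible monooxygenase that oxidises planar aromatic compounds, lies at chr15:74719542-74725610 on the minus strand in GENCODE 29. Its level was 102 CPM in the Banhasasim-tang high library, against 0.820 and 0.718 CPM in the 2 Yijung-tang high libraries and 0.460 ± 0.051 CPM in vehicle (SD, n = 3). The Banhasasim-tang value was above both Yijung-tang values by 132-fold in the model (log2 7.05 ± 0.22 SE, adjusted p = 4.1e-26), the largest rise among named genes. CYP1B1, a related monooxygenase, stood at 371 CPM in Banhasasim-tang against 60.4 and 61.2 CPM in Yijung-tang (log2 2.61 ± 0.08, adjusted p = 4.1e-26) and 48.2 ± 1.7 CPM in vehicle. TIPARP, an ADP-ribosyltransferase that restrains the receptor, was at 196 CPM in Banhasasim-tang against 88.8 and 95.1 CPM in Yijung-tang (log2 1.09 ± 0.08). All of these values lay above both of the Yijung-tang libraries, whose own values were close together.

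Of 7 aryl hydrocarbon receptor targets tested, 4 were higher in Banhasasim-tang and none lower, with a median log2 difference of 0.86 against -0.0013 over all genes tested. The fourth was ALDH3A1, an aldehyde dehydrogenase, at 59.1 CPM in Banhasasim-tang against 31.5 and 33.4 CPM in Yijung-tang (log2 0.86 ± 0.09). Both formulas raised it from low to high dose, Yijung-tang by log2 0.79 (adjusted p = 1.4e-08) and Banhasasim-tang by log2 1.43. NQO1, a quinone reductase, did not pass the test, at 804 CPM in Banhasasim-tang against 629 and 654 CPM in Yijung-tang (log2 0.33 ± 0.15, adjusted p = 0.49), and it passed without Zizyphi Fructus medium replicate 3. UGT1A6, a glucuronidating enzyme, and AHRR, the receptor's repressor, gave log2 0.24 and -0.17 and did not pass. Of the 4 targets that Coptidis Rhizoma alone raised at least 2-fold between high and low dose, 3 recurred in the formula, namely CYP1A1, CYP1B1 and TIPARP. For CYP1A1 the formula difference and the Coptidis Rhizoma response, log2 7.05 and 6.87, differed by 0.18 ± 0.34 (adjusted p = 0.73), and for CYP1B1, log2 2.61 and 2.39, by 0.22 ± 0.11 (adjusted p = 0.11). These p-values do not show that the sizes were equal. The sizes also depended on the baseline, since Coptidis Rhizoma low already stood above Zizyphi Fructus low. The gap was log2 2.85 for CYP1A1 and 0.97 for CYP1B1. Against Zizyphi Fructus high, Coptidis Rhizoma high gave log2 9.10 for CYP1A1 and 3.21 for CYP1B1, sizes not tested against the formula difference. TIPARP differed less between the formulas than in Coptidis Rhizoma high against low (log2 1.65), by -0.56 ± 0.11 (adjusted p = 0.00012). ALDH3A1 differed more (log2 0.32 in Coptidis Rhizoma high against low), by 0.55 ± 0.12 (adjusted p = 0.00023). That result depended on the baseline: Coptidis Rhizoma low was already above Zizyphi Fructus low in ALDH3A1 (log2 0.57, adjusted p = 1.4e-05). Against Zizyphi Fructus high, Coptidis Rhizoma high gave log2 0.80 for ALDH3A1 and 1.90 for TIPARP.

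**Figure D1:**
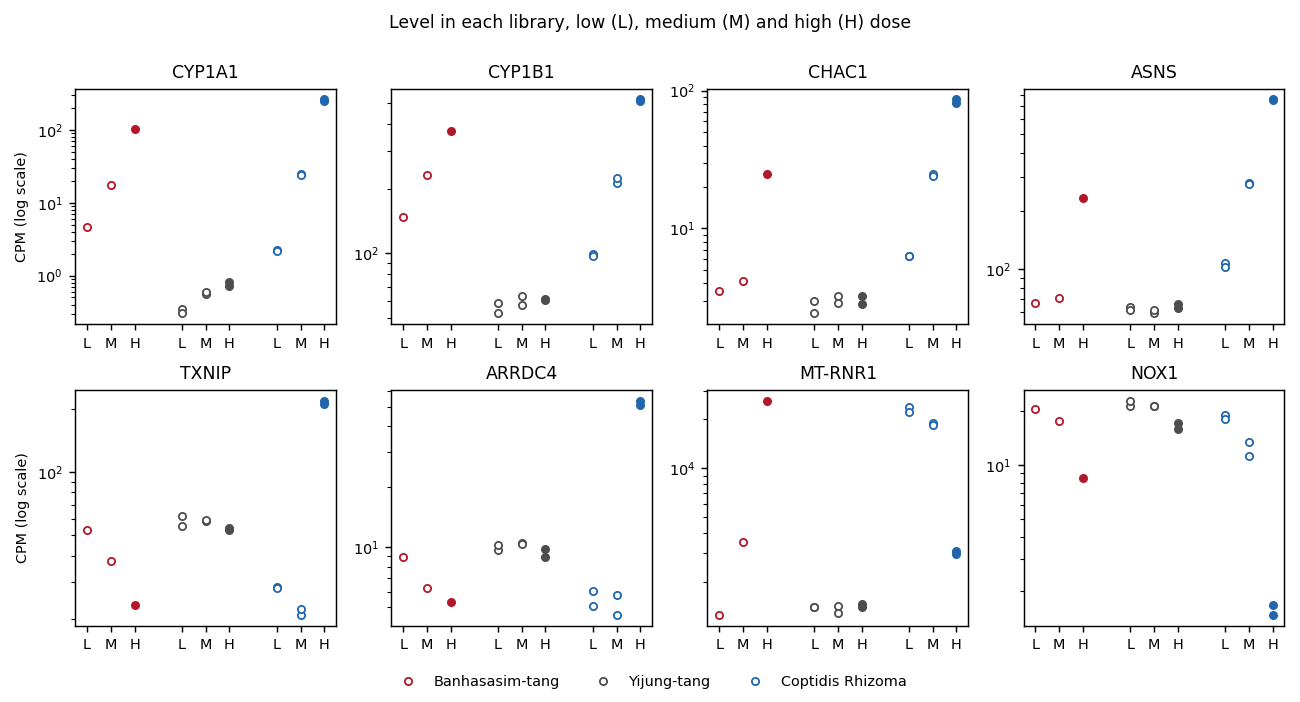
Level of 8 genes in CPM (log scale) in each library of Banhasasim-tang, Yijung-tang and Coptidis Rhizoma at low (L), medium (M) and high (H) dose, 1 point per library, filled at high dose. CYP1A1 and CYP1B1 climbed through all 3 doses of Banhasasim-tang, CHAC1 and ASNS stood clear of Yijung-tang at the high dose, and TXNIP and ARRDC4 stood high in the Coptidis Rhizoma high libraries, at 212 and 219 CPM for TXNIP, and low in Banhasasim-tang high, at 23.1 CPM.

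The ATF4 genes gave the largest number of recurring genes among the 25 lists. Of 24 tested, 19 were higher in Banhasasim-tang and none lower, with a median log2 difference of 0.94. CHAC1, which breaks down glutathione and lies at chr15:40952962-40956519, was at 24.7 CPM in Banhasasim-tang against 2.85 and 3.23 CPM in Yijung-tang and 2.85 ± 0.37 CPM in vehicle (SD, n = 3). Its log2 difference was 3.02 ± 0.20 (adjusted p = 2.3e-14). ASNS, asparagine synthetase, at chr7:97852118-97872542, stood at 234 CPM in Banhasasim-tang against 65.6 and 62.9 CPM in Yijung-tang (log2 1.86 ± 0.08, adjusted p = 4.6e-22). DDIT4, an inhibitor of mTORC1, was at 92.9 CPM in Banhasasim-tang against 23.9 and 25.8 CPM in Yijung-tang (log2 1.90 ± 0.14). The secreted peptide gene ADM2 followed, at 10.5 CPM in Banhasasim-tang against 2.07 and 1.80 CPM in Yijung-tang (log2 2.45 ± 0.20). In each case the Banhasasim-tang value stood above both Yijung-tang values, which lay near vehicle.

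The remaining ATF4 genes that passed spanned the arms of the pathway. Among regulators, TRIB3 (log2 1.36), ATF3 (1.35), DDIT3 (0.85) and ATF4 itself (0.68) rose. The serine and one-carbon enzymes PSAT1 (1.31), PHGDH (0.78), MTHFD2 (0.75), PSPH (0.54) and SHMT2 (0.44) rose as well. CTH, which makes cysteine, was at 5.39 CPM in Banhasasim-tang against 4.31 and 3.75 CPM in Yijung-tang and did not pass (log2 0.42 ± 0.20, adjusted p = 0.53), although Coptidis Rhizoma raised it by log2 3.14. The stress cytokine gene GDF15 was at 72.2 CPM in Banhasasim-tang against 45.0 and 44.2 CPM in Yijung-tang (log2 0.69 ± 0.22, adjusted p = 0.12). It passed without Zizyphi Fructus medium replicate 3. Coptidis Rhizoma raised 21 of the 24 genes at least 2-fold, with a median log2 change of 2.46, and 17 of those 21 recurred in the formula. The differences in the formula were smaller in size: 20 of the 24 genes were lower in the test of the formula difference minus the Coptidis Rhizoma response, against 17.0% of all genes lower and 35.4% called in either direction. CHAC1 had 84.2 ± 3.4 CPM in Coptidis Rhizoma high and 6.32 ± 0.01 CPM in Coptidis Rhizoma low (SD, n = 2 each). ASNS differed by log2 -0.98 ± 0.10 between the 2 comparisons (adjusted p = 2.9e-10).

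Amino acid transporters moved with them. Of 11 tested, 7 were higher in Banhasasim-tang and none lower (median log2 0.72), and 5 of the 6 that Coptidis Rhizoma raised at least 2-fold recurred. SLC6A9, a glycine transporter, was at 6.06 CPM in Banhasasim-tang against 0.863 and 0.958 CPM in Yijung-tang (log2 2.72 ± 0.25, adjusted p = 1.6e-10). SLC7A11, the cystine importer, was at 419 CPM in Banhasasim-tang against 187 and 189 CPM in Yijung-tang (log2 1.15 ± 0.10). The neutral amino acid carriers SLC1A4 and SLC7A5 rose by log2 1.24 ± 0.11 and 0.89 ± 0.09. SLC3A2, the partner chain of SLC7A5 and SLC7A11, fell just short at 283 CPM in Banhasasim-tang against 163 and 166 CPM in Yijung-tang (log2 0.78 ± 0.22, adjusted p = 0.056). It passed without Zizyphi Fructus medium replicate 3 (log2 0.78 ± 0.07). In that fit every transporter that Coptidis Rhizoma raised at least 2-fold recurred.

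Of 20 cytosolic aminoacyl-tRNA synthetases, which load amino acids onto their tRNAs, 10 were higher in Banhasasim-tang and none lower (median log2 0.39). All 7 that Coptidis Rhizoma raised at least 2-fold recurred. SARS1, for serine, was at 180 CPM in Banhasasim-tang against 104 and 103 CPM in Yijung-tang (log2 0.80 ± 0.07, adjusted p = 1.9e-11). The synthetases for glycine, alanine and cysteine, GARS1, AARS1 and CARS1, rose by log2 0.71, 0.69 and 0.66. The members that did not rise in the formula included those with small or downward changes in Coptidis Rhizoma. VARS1, for valine, fell at least 2-fold in Coptidis Rhizoma and stood at 239 CPM in Banhasasim-tang against 242 and 244 CPM in Yijung-tang (log2 -0.02 ± 0.12, adjusted p = 1).

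**Figure D2:**
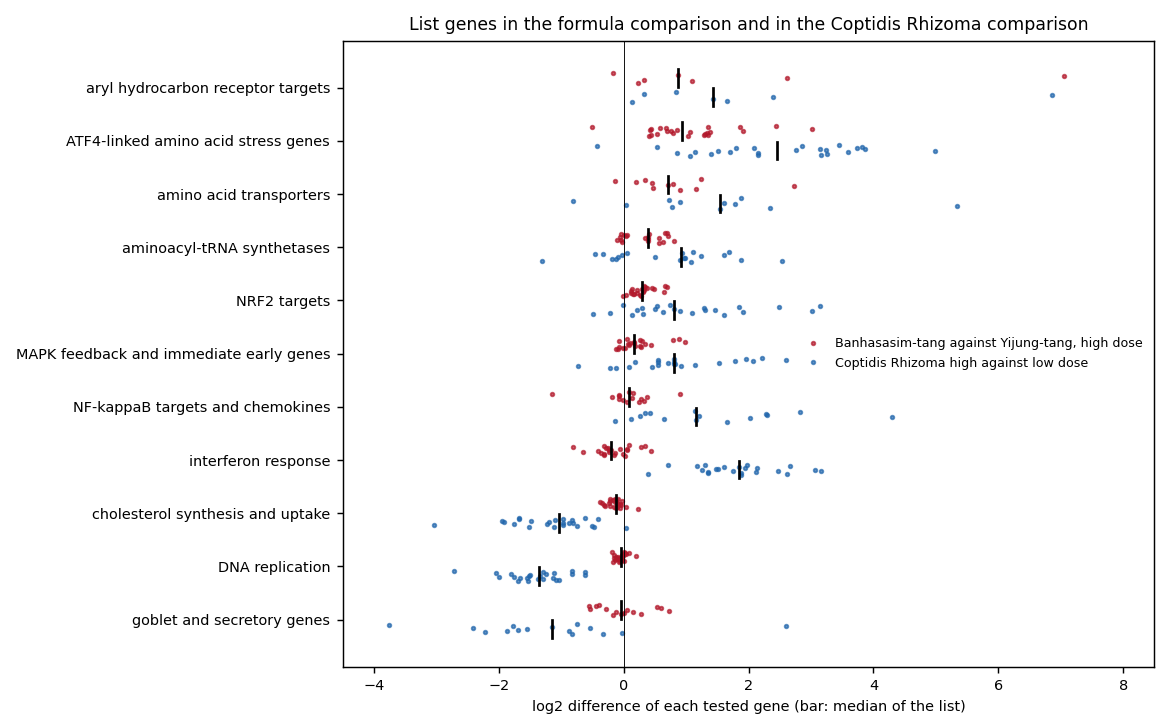
Log2 difference of each tested gene of 11 lists, in Banhasasim-tang against Yijung-tang at high dose and in Coptidis Rhizoma high against low dose, 1 point per gene, with a bar at each list's median. The ATF4 list lay to the right in both comparisons (medians 0.94 and 2.46), whereas the interferon list lay near 0 in the formula comparison (median -0.20) and to the right in Coptidis Rhizoma (median 1.85).

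Seen over the whole transcriptome, Coptidis Rhizoma alone raised 1077 genes (6.72%) and lowered 1405 genes (8.77%) at least 2-fold between high and low dose at an adjusted p under 0.05. With no fold minimum it raised 4449 genes (27.8%) and lowered 4552 (28.4%), 56.2% in either direction. These libraries are shared with neither formula. The smallest change included was 1.0007 on the log2 scale among raised genes and 1.0005 in size among lowered genes, and the largest left out were 0.9998 and 0.99989. Of the 1077 raised genes, 109 were also higher in Banhasasim-tang (10.1%), 3 were lower and 965 did not pass. Their median log2 formula difference was 0.17, and 72.5% of them had a positive difference of any size, against 49.5% of all genes. Of the 1405 lowered genes, 36 were also lower in Banhasasim-tang (2.56%), 3 were higher and 1366 did not pass. Their median was -0.09, and 64.5% had a negative difference, against 50.4% of all genes. Looked at from the formula, the 109 genes were 61.6% of the 177 higher genes, and the 36 genes were 48% of the 75 lower genes. Among genes outside the raised or lowered set the shares were 0.455% higher and 0.267% lower. A further 43 of the 177 higher genes were raised in Coptidis Rhizoma by less than 2-fold.

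The share that recurred grew with the size of the Coptidis Rhizoma change. Among raised genes it was 5.55% for log2 changes of 1 to 1.5, 11.4% for 1.5 to 2, 18.2% for 2 to 3 and 23.1% at 3 or more. Among lowered genes it was 1.62%, 1.66%, 4.19% and 10.2% over the same ranges. Across all 16022 genes the log2 values of the 2 comparisons had a Pearson correlation of 0.168, and across the 2482 genes of the Coptidis Rhizoma response it was 0.29. Genes are not independent replicates, and the value describes these libraries only. Without Zizyphi Fructus medium replicate 3, 166 of 1102 raised genes (15.1%) and 87 of 1405 lowered genes (6.19%) recurred. With Zizyphi Fructus high in place of Coptidis Rhizoma low as the baseline, 1175 genes were raised (7.33%) and 1434 lowered (8.95%) at least 2-fold, and 118 and 45 of them recurred.

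**Figure D3:**
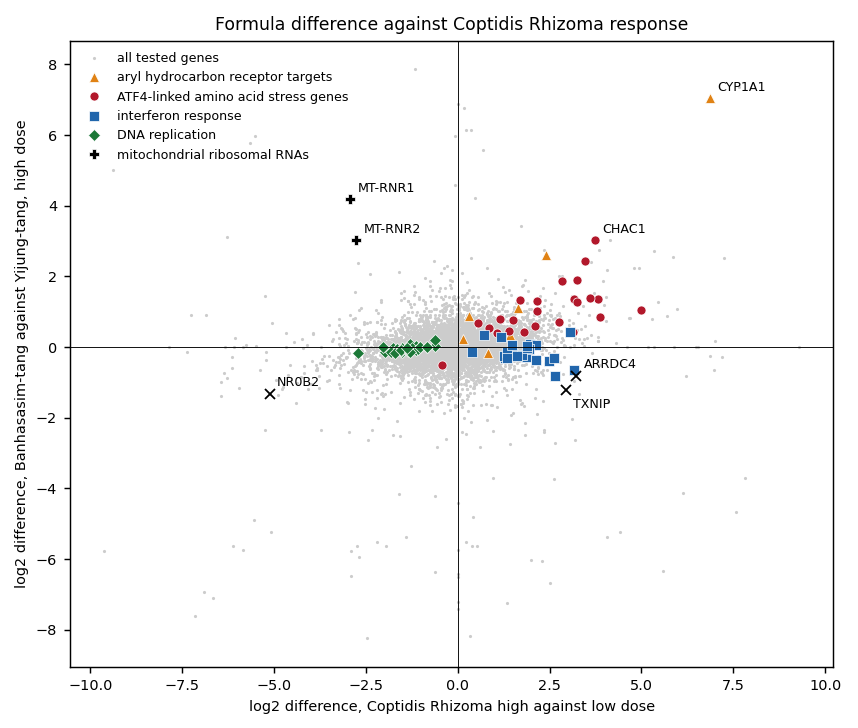
Log2 difference in Banhasasim-tang against Yijung-tang at high dose (vertical axis) plotted on the log2 change of Coptidis Rhizoma high against low dose (horizontal axis), 1 point per tested gene. CYP1A1 stood at 7.05 and 6.87. Most ATF4 genes lay in the upper right, with 1 of the 24 below 0 in the formula comparison (log2 -0.51). The interferon and DNA replication genes lay along the horizontal axis, and MT-RNR1 and MT-RNR2 lay in the upper left.

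Other inducible groups recurred in part. Of 23 NRF2 targets, which NRF2 raises against electrophiles and oxidants, 5 were higher in Banhasasim-tang and none lower (median log2 0.29). The aldo-keto reductase AKR1C1 was at 29.7 CPM in Banhasasim-tang against 18.5 and 18.3 CPM in Yijung-tang (log2 0.69 ± 0.14, adjusted p = 0.0022). Its reads may be split with near-identical AKR1C genes, so its value is uncertain. HMOX1, heme oxygenase, was at 17.7 CPM in Banhasasim-tang against 12.3 and 10.5 CPM in Yijung-tang (log2 0.64 ± 0.17, adjusted p = 0.036). That call was lost without Yijung-tang high replicate 2, which left log2 0.53. GCLC, which starts glutathione synthesis, rose by log2 0.32 ± 0.07. Of the 10 NRF2 targets that Coptidis Rhizoma raised at least 2-fold, those 3 recurred, and 12 of the 23 targets passed without Zizyphi Fructus medium replicate 3. The formula difference was smaller than the Coptidis Rhizoma response, in which AKR1C1 and HMOX1 rose by log2 3.14 and 3.02. In the test of the difference they gave -2.45 ± 0.19 and -2.38 ± 0.22. Yijung-tang itself raised AKR1C2, AKR1C1 and GCLC from low to high dose, by log2 0.93, 0.59 and 0.28. Their adjusted p-values were 2.5e-05, 0.021 and 0.014 in edgeR. HMOX1 (0.23), OSGIN1 (0.13) and ABCC3 (0.10) did not pass. AKR1C2 did not recur in the fit over all libraries (formula log2 0.38). Without Zizyphi Fructus medium replicate 3 it did (log2 0.37), and more of the 10 targets recurred than the 3 named above. AKR1C2 was log2 1.40 higher in Banhasasim-tang high than low. A small formula difference thus does not show a weak response to Banhasasim-tang.

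Among 22 MAPK feedback and immediate early genes, 3 were higher in Banhasasim-tang, all of them also raised by Coptidis Rhizoma, and 6 were higher without Zizyphi Fructus medium replicate 3. EREG and AREG encode ligands of the EGF receptor. EREG was at 188 CPM in Banhasasim-tang against 95.5 and 94.7 CPM in Yijung-tang (log2 0.99 ± 0.10, adjusted p = 7.8e-10). AREG was at 75.9 CPM in Banhasasim-tang against 42.3 and 39.7 CPM in Yijung-tang (log2 0.89 ± 0.14). DUSP5, a phosphatase of nuclear ERK, was at 6.21 CPM in Banhasasim-tang against 4.18 and 3.03 CPM in Yijung-tang (log2 0.79 ± 0.19, adjusted p = 0.018), and without Yijung-tang high replicate 2 it was log2 0.57 and no longer passed. EGR1 and DUSP1, which Coptidis Rhizoma raised by log2 1.79 and 1.95, gave 0.30 ± 0.32 and 0.04 ± 0.22 and did not pass. VEGFA, an angiogenic growth factor that ATF4 can also raise, was at 137 CPM in Banhasasim-tang against 74.2 and 72.7 CPM in Yijung-tang (log2 0.90 ± 0.07, adjusted p = 3.1e-12). Of 18 hypoxia and glycolysis genes it was the 1 that was higher, and TXNIP and ARRDC4 were the 2 that were lower. Without Zizyphi Fructus medium replicate 3 this list held 2 higher and 4 lower genes, with the glucose transporter SLC2A1 (log2 0.27) added to the higher ones and EGLN3 (-0.43) and LDHA (-0.19) to the lower ones. PMAIP1, encoding the pro-apoptotic protein NOXA, rose by log2 0.67 ± 0.15, and HERPUD1, of endoplasmic reticulum degradation, by 0.44 ± 0.08. PMAIP1 was the 1 higher gene among 17 p53 and death receptor genes, and HERPUD1 among 19 chaperone and unfolded protein response genes. The cell cycle inhibitor CDKN1A joined the higher p53 genes without Zizyphi Fructus medium replicate 3 (log2 0.35, adjusted p = 0.023) and recurred, and in that fit the chaperone HSP90B1 was lower (log2 -0.15, adjusted p = 0.027).

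Large parts of the Coptidis Rhizoma response were not found in the formula. The interferon-stimulated genes, which defend against viruses, are the clearest case. Coptidis Rhizoma raised 21 of 23 at least 2-fold (median log2 1.85), and 0 of 23 passed in either direction in the formula comparison in edgeR (median log2 -0.20), 0 in DESeq2 and 0 without Zizyphi Fructus medium replicate 3, with 1 at an unadjusted p under 0.05. In the test of the formula difference minus the Coptidis Rhizoma response, 21 of the 23 were lower. MX2, an antiviral GTPase, was at 0.865 CPM in Banhasasim-tang against 1.29 and 1.44 CPM in Yijung-tang (log2 -0.66 ± 0.42, adjusted p = 0.77). It stood at 16.4 and 13.3 CPM in Coptidis Rhizoma high against 1.69 and 1.64 CPM in Coptidis Rhizoma low, and the 2 comparisons differed by -3.81 ± 0.49 on the log2 scale (adjusted p = 3.5e-08). ISG20, an exonuclease, was at 4.21 CPM in Banhasasim-tang against 3.32 and 2.91 CPM in Yijung-tang and did not pass (adjusted p = 0.70), with a difference of -2.63 ± 0.32 from the Coptidis Rhizoma response.

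NF-kappaB targets and chemokines followed: of 15 tested, Coptidis Rhizoma raised 9 at least 2-fold, 0 passed in the formula comparison in edgeR or DESeq2 with 3 at an unadjusted p under 0.05, and 10 were lower in the test of the difference. Without Zizyphi Fructus medium replicate 3, TNFAIP2 was higher (log2 0.24, adjusted p = 0.0026) and the chemokine CXCL1 lower (log2 -1.15, adjusted p = 0.043), and neither recurred. LCN2, an iron-sequestering defence protein, stood at 74.0 CPM in Banhasasim-tang against 78.4 and 77.7 CPM in Yijung-tang (log2 -0.08 ± 0.09), and at 358 and 355 CPM in Coptidis Rhizoma high against 85.5 and 90.2 CPM in Coptidis Rhizoma low. The DNA replication genes, which build and fire replication forks, gave the same picture downward. Coptidis Rhizoma lowered 20 of 24 at least 2-fold (median log2 -1.36). In the formula comparison 0 of 24 passed in edgeR (median log2 -0.05), with 1 in DESeq2, 1 without Zizyphi Fructus medium replicate 3 and 2 at an unadjusted p under 0.05, and all 24 were higher in the test of the difference, against 18.5% of all genes. CCNE2, a cyclin of S phase entry, was at 13.2 CPM in Banhasasim-tang against 15.4 and 14.6 CPM in Yijung-tang (log2 -0.18 ± 0.14, adjusted p = 0.87), and at 1.84 and 2.34 CPM in Coptidis Rhizoma high against 13.4 and 14.0 CPM in Coptidis Rhizoma low. E2F1, the transcription factor above them, was at 70.8 CPM in Banhasasim-tang against 71.3 and 69.8 CPM in Yijung-tang (log2 0.01 ± 0.18). The 24 mitosis genes had 0 calls in the formula comparison in edgeR or DESeq2, with 1 without Zizyphi Fructus medium replicate 3 and 1 at an unadjusted p under 0.05.

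Sterol genes sat between. Coptidis Rhizoma lowered 12 of 24 cholesterol synthesis and uptake genes at least 2-fold (median log2 -1.04), and 1 of 24 was lower in Banhasasim-tang (median log2 -0.13), with 6 lower without Zizyphi Fructus medium replicate 3. That gene was INSIG1, which holds the sterol sensor SCAP in the endoplasmic reticulum, at 129 CPM in Banhasasim-tang against 166 and 163 CPM in Yijung-tang (log2 -0.34 ± 0.07, adjusted p = 0.0049). HMGCS1, an early enzyme of the mevalonate pathway, was at 178 CPM in Banhasasim-tang against 239 and 224 CPM in Yijung-tang (log2 -0.38 ± 0.12, adjusted p = 0.13). In the test of the formula difference minus the Coptidis Rhizoma response 21 of the 24 genes were higher, that is, lowered less in the formula than in Coptidis Rhizoma. Other lists gave 0 calls in edgeR and in DESeq2: 10 fatty acid synthesis genes, 13 heat shock genes, 22 lysosome and autophagy genes, and 7 metallothioneins and zinc exporters. At an unadjusted p under 0.05 they held 3, 1, 4 and 2 genes, and without Zizyphi Fructus medium replicate 3 they held 0 calls except 1 among the lysosome and autophagy genes, SQSTM1 (log2 0.24, adjusted p = 0.036). The autophagy gene MAP1LC3B, for example, was at 53.1 CPM in Banhasasim-tang against 47.0 and 48.0 CPM in Yijung-tang (log2 0.16 ± 0.07, adjusted p = 0.48), beside a Coptidis Rhizoma change of log2 2.63.

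Changes of opposite sign were few, in 6 genes of the Coptidis Rhizoma response. TXNIP, ARRDC4 and H2AC6 were raised by Coptidis Rhizoma and lower in Banhasasim-tang, and POU2F3, MT-RNR1 and MT-RNR2 were lowered by Coptidis Rhizoma and higher in Banhasasim-tang. TXNIP binds thioredoxin and, like its relative ARRDC4, restrains glucose uptake; both are arrestin-fold proteins induced by glucose through MondoA and ChREBP. TXNIP, at chr1:145992435-145996600, was at 23.1 CPM in Banhasasim-tang against 53.2 and 54.3 CPM in Yijung-tang (log2 -1.22 ± 0.09, adjusted p = 8.9e-14) and 60.1 ± 1.4 CPM in vehicle (SD, n = 3). ARRDC4 was at 5.35 CPM in Banhasasim-tang against 8.97 and 9.74 CPM in Yijung-tang (log2 -0.81 ± 0.14, adjusted p = 0.00022) and 9.95 ± 0.90 CPM in vehicle. Both Banhasasim-tang values lay below both Yijung-tang values. H2AC6, a histone H2A gene, was at 7.24 CPM in Banhasasim-tang against 9.88 and 10.5 CPM in Yijung-tang (log2 -0.49 ± 0.12, adjusted p = 0.02), and that call was lost without Yijung-tang high replicate 2. POU2F3, the tuft cell transcription factor, named here after its values were seen, was at 2.95 CPM in Banhasasim-tang against 1.04 and 1.36 CPM in Yijung-tang (log2 1.29 ± 0.25, adjusted p = 0.0012).

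MT-RNR1 and MT-RNR2 encode the 12S and 16S ribosomal RNAs of the mitochondrion, at chrM:648-1601 and chrM:1671-3229. MT-RNR1 was at 25900 CPM in Banhasasim-tang against 1392 and 1457 CPM in Yijung-tang (log2 4.18 ± 0.28, adjusted p = 1.2e-14), and MT-RNR2 at 82267 CPM in Banhasasim-tang against 10131 and 10169 CPM in Yijung-tang (log2 3.02 ± 0.35, adjusted p = 4.2e-08). Together they took 10.2% of the counts of the Banhasasim-tang high library (95% Wilson interval 10.19 to 10.21, counting error only) against 1.15% and 1.17% in Yijung-tang high. The 51 libraries of neither Banhasasim-tang nor Coptidis Rhizoma held between 0.891% and 2.96%, with a median of 1.15%. The 10 most abundant genes took 14.5% of the Banhasasim-tang library against 8.93% and 8.53% in Yijung-tang. With the 15 mitochondrial genes left out of the scaling, 178 genes were higher and 76 lower, among them 177 and 74 of those named above. The mitochondrial messenger RNAs went the other way in share, at 3.28% of counts in Banhasasim-tang against 7.33% and 6.99% in Yijung-tang. In edgeR 0 of the 13 passed (median log2 -1.09), with 7 at an unadjusted p under 0.05. In DESeq2 4 were lower, and 10 of 13 were lower without Zizyphi Fructus medium replicate 3, the library with the high mitochondrial share. The labels call the libraries messenger RNA libraries, and any part of library preparation in the ribosomal RNA share was not tested.

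In these genes the low dose of Coptidis Rhizoma already differed from Zizyphi Fructus in the same library set, and the sign of the Coptidis Rhizoma change depended in part on the baseline. Against Zizyphi Fructus high, Coptidis Rhizoma high had more MT-RNR1 (log2 1.61, adjusted p = 1.4e-07), the direction seen in the formula, whereas MT-RNR2 did not pass (log2 0.51, adjusted p = 0.13) and TXNIP kept the opposite sign (log2 1.84). Values are set side by side, since doses and library sets differ. TXNIP averaged 28.1, 21.5 and 215 CPM in Coptidis Rhizoma at 12.8, 64 and 320 µg/mL, and ARRDC4 averaged 5.57, 5.17 and 52.3 CPM, beside 23.1 and 5.35 CPM in Banhasasim-tang high. MT-RNR1 averaged 23006, 18698 and 3030 CPM over the same doses of Coptidis Rhizoma, beside 25900 CPM in Banhasasim-tang high and 1315 ± 84.6 CPM in vehicle. MT-RNR2 averaged 85425, 44901 and 12609 CPM, beside 82267 CPM in Banhasasim-tang high. The mitochondrial ribosomal RNAs took 10.5% and 9.79% of counts in the Coptidis Rhizoma low libraries, 6.44% and 6.26% at medium dose and 1.64% and 1.56% at high dose. In these 4 genes the Banhasasim-tang high library thus lay near Coptidis Rhizoma at 12.8 or 64 µg/mL and away from 320 µg/mL. CHAC1, at 24.7 CPM in Banhasasim-tang high, likewise lay near the 24.3 ± 0.6 CPM of Coptidis Rhizoma medium, and ASNS, at 234 CPM, near its 277 ± 1.9 CPM (SD, n = 2). CYP1A1 did not: it was at 102 CPM in Banhasasim-tang high and at 24.2 ± 0.65 CPM in Coptidis Rhizoma medium. MX2, ISG20, LCN2, CCNE2 and E2F1, which did not pass in the formula, averaged 1.67, 3.73, 87.8, 13.7 and 71.0 CPM in Coptidis Rhizoma low. Their averages were 1.23, 4.91, 90.9, 10.3 and 68.7 CPM at medium dose and 14.8, 31.0, 357, 2.09 and 17.3 CPM at high dose. Most of their change thus lay between 64 and 320 µg/mL. The medium dose was not tested against the others.

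A definition of the Coptidis Rhizoma response added after the data were seen, low dose against Zizyphi Fructus low dose in the same library set, held 9 of the 16022 genes. The 5 raised at least 2-fold (0.0312%) were MT-RNR1 (log2 4.43 ± 0.26), MT-RNR2 (3.11 ± 0.32), CYP1A1 (2.85 ± 0.37), CHAC1 (1.36 ± 0.21) and ADM2 (1.11 ± 0.19). All 5 were also higher in Banhasasim-tang than in Yijung-tang at high dose. The 4 lowered (0.025%) were TXNIP (log2 -1.11 ± 0.07), MT-CO3 (-1.80 ± 0.30), MT-ND4L (-1.80 ± 0.32) and TMEM30BP1 (-1.998 ± 0.44). Of these TXNIP was lower in Banhasasim-tang, and MT-CO3 and MT-ND4L, subunits of cytochrome oxidase and of complex I, gave log2 -1.32 ± 0.38 and -1.28 ± 0.40 and did not pass (adjusted p = 0.07 and 0.12).

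**Figure D4:**
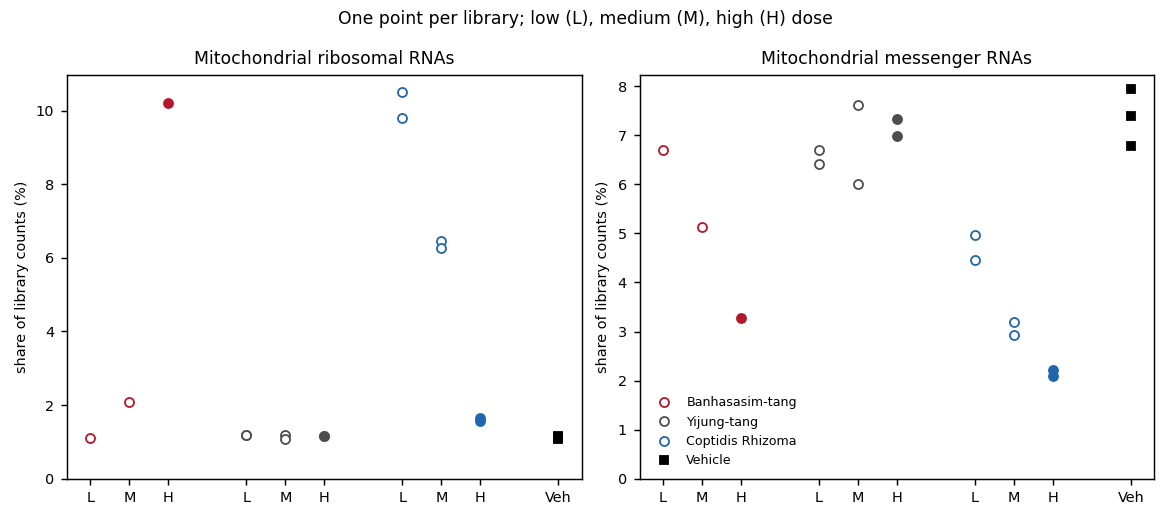
Share of library counts (percent) taken by the 2 mitochondrial ribosomal RNAs (left) and by the 13 mitochondrial messenger RNAs (right), 1 point per library, at low (L), medium (M) and high (H) dose and in vehicle. The ribosomal RNA share was 10.2% in Banhasasim-tang high and 10.5% and 9.79% in Coptidis Rhizoma low, and it was 1.15% and 1.17% in Yijung-tang high.

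Genes lower in Banhasasim-tang included several of epithelial function that Coptidis Rhizoma lowered further. NOX1, the NADPH oxidase of colon epithelium, was at 8.49 CPM in Banhasasim-tang against 16.0 and 17.2 CPM in Yijung-tang (log2 -0.97 ± 0.12, adjusted p = 3.1e-07), and it was the 1 gene called of 10 NADPH oxidase and redox genes. It stood at 1.46 and 1.67 CPM in Coptidis Rhizoma high against 19.1 and 18.1 CPM in Coptidis Rhizoma low. GABRP, the pi subunit of the GABA-A receptor, was at 8.81 CPM in Banhasasim-tang against 19.0 and 20.8 CPM in Yijung-tang (log2 -1.17 ± 0.13, adjusted p = 2.6e-08). NR0B2, the repressor SHP of bile acid synthesis, was at 2.79 CPM in Banhasasim-tang against 7.38 and 6.58 CPM in Yijung-tang (log2 -1.32 ± 0.22, adjusted p = 8.9e-05). Vehicle lay between them, at 5.32 ± 0.56 CPM for NR0B2 (SD, n = 3). NR0B2 had 0.0751 and 0.167 CPM in Coptidis Rhizoma high, against 4.85 and 3.75 CPM in Coptidis Rhizoma low. In the Coptidis Rhizoma high libraries 3 counts correspond to 0.116 and 0.128 CPM. ADH1C, an alcohol dehydrogenase, was at 0.944 CPM in Banhasasim-tang against 2.89 and 2.79 CPM in Yijung-tang (log2 -1.58 ± 0.27, adjusted p = 2e-04).

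The other large falls were of genes at low levels. KLRC2 (log2 -1.45), BDNF (-1.31), WWTR1 (-1.21) and KLRK1-AS1 (-1.19) were between 0.551 and 1.02 CPM in Banhasasim-tang. KLRC2 and KLRK1-AS1 no longer passed without Yijung-tang high replicate 2, and BDNF and WWTR1 no longer passed without replicate 1. Of 22 enterocyte and surface genes, NR0B2 and CLDN2 were lower, and both recurred from the 8 that Coptidis Rhizoma lowered at least 2-fold. CLDN2, a pore-forming tight junction protein, was at 93.9 CPM in Banhasasim-tang against 131 and 135 CPM in Yijung-tang (log2 -0.50 ± 0.09), a smaller fall than in Coptidis Rhizoma by 2.68 ± 0.12 on the log2 scale. Of 13 drug metabolism and efflux genes, ADH1C and the efflux pump ABCG2 (log2 -0.34 ± 0.07) were lower. Of 17 p53 and death receptor genes 1 was lower, SESN1, a stress-induced inhibitor of mTORC1 (log2 -0.38 ± 0.08).

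Of 15 goblet and secretory genes, Coptidis Rhizoma lowered 8 at least 2-fold, and the formula comparison called 2, or 3 without Zizyphi Fructus medium replicate 3. AGR2, a disulfide isomerase of mucin folding, was at 148 CPM in Banhasasim-tang against 195 and 195 CPM in Yijung-tang (log2 -0.39 ± 0.09, adjusted p = 0.005). KLF4, a differentiation factor, was at 10.3 CPM in Banhasasim-tang against 6.90 and 7.34 CPM in Yijung-tang (log2 0.53 ± 0.12, adjusted p = 0.011), and it no longer passed without Yijung-tang high replicate 1. The gel-forming mucin MUC2 and the secretory fate factor ATOH1 gave log2 -0.54 ± 0.51 and -0.44 ± 0.23 and did not pass. Of 13 WNT and stem cell genes only the receptor EPHB3 was called, at 15.0 CPM in Banhasasim-tang against 25.0 and 22.2 CPM in Yijung-tang (log2 -0.65 ± 0.18, adjusted p = 0.045), a call lost without either Yijung-tang library, whereas 4 of the 13 were lower without Zizyphi Fructus medium replicate 3. The stem cell receptor LGR5 missed the threshold at 33.7 CPM in Banhasasim-tang against 41.4 and 43.2 CPM in Yijung-tang (log2 -0.33 ± 0.09, adjusted p = 0.052), and CD44 gave log2 -0.19 ± 0.14.

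Few genes were called at the lower doses, receptor targets among them. At 100 µg/mL 13 genes were higher in Banhasasim-tang (0.0811%) and 2 were lower (0.0125%), 0.0936% in either direction, and at 20 µg/mL 5 were higher (0.0312%) and 0 lower in edgeR, with 165 lower at an unadjusted p under 0.05 and 0 in DESeq2. Without Zizyphi Fructus medium replicate 3, 35 genes passed at 100 µg/mL and 10 at 20 µg/mL. The 5 genes at 20 µg/mL were CYP1A1, CYP1B1, TIPARP, the retinal dehydrogenase ALDH1A3 and the kinase PIM1, and each was also higher at 100 and 500 µg/mL. CYP1A1 was at 4.64 CPM in Banhasasim-tang low against 0.352 and 0.304 CPM in Yijung-tang low, and at 17.4 CPM in Banhasasim-tang medium against 0.558 and 0.601 CPM in Yijung-tang medium. Its log2 differences at 20, 100 and 500 µg/mL were 3.80 ± 0.35, 4.90 ± 0.26 and 7.05 ± 0.22. CYP1B1 was at 147 CPM in Banhasasim-tang low against 58.7 and 52.7 CPM in Yijung-tang low, with log2 differences of 1.40, 1.93 and 2.61. ALDH1A3 was at 37.1 CPM in Banhasasim-tang low against 17.2 and 16.5 CPM in Yijung-tang low, with log2 differences of 1.14, 1.43 and 1.91. At high dose it differed more between the formulas than in Coptidis Rhizoma high against low, by 0.82 ± 0.15 (adjusted p = 1.9e-05). Here too the baseline mattered, with Coptidis Rhizoma low already log2 0.78 above Zizyphi Fructus low (adjusted p = 2.9e-06). Against Zizyphi Fructus high, Coptidis Rhizoma high gave log2 1.78. Its mean ALDH1A3 level was 62.5 CPM, beside 67.1 CPM in Banhasasim-tang high. Of the 7 receptor targets, 3 passed at 20, 4 at 100 and 4 at 500 µg/mL.

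At 20 and 100 µg/mL 0 of the 24 ATF4 genes passed in edgeR or DESeq2, with 0 and 3 at an unadjusted p under 0.05, against 340 and 517 of the 16022 genes, and median log2 differences of 0.08 and 0.10. The 20 synthetases had 0 calls in both tools and 0 at an unadjusted p under 0.05 at either dose. The 11 transporters had 0 calls in edgeR, with 1 and 2 at an unadjusted p under 0.05 and 1 call in DESeq2 at 100 µg/mL. The 23 interferon genes had 0 calls in edgeR at either dose. At an unadjusted p under 0.05, 1 of them was lower at 20 µg/mL and 7 were lower at 100 µg/mL. At 100 µg/mL 1 was lower in DESeq2, and the median log2 difference was -0.27. ASNS was at 66.7 CPM in Banhasasim-tang low against 63.8 and 61.5 CPM in Yijung-tang low, and at 71.1 CPM in Banhasasim-tang medium against 59.0 and 61.4 CPM in Yijung-tang medium. The 2 genes lower at 100 µg/mL were TXNIP, at 37.8 CPM in Banhasasim-tang against 58.2 and 59.2 CPM in Yijung-tang (log2 -0.63 ± 0.08), and ARRDC4, at 6.29 CPM in Banhasasim-tang against 10.5 and 10.4 CPM in Yijung-tang (log2 -0.73 ± 0.13). MT-RNR1 was higher at 100 µg/mL, at 3491 CPM in Banhasasim-tang against 1422 and 1277 CPM in Yijung-tang (log2 1.37 ± 0.27, adjusted p = 0.0099).

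The dependence on dose was tested directly as the formula difference at 500 minus that at 20 µg/mL, which uses the high-dose libraries again. It was higher for 58 genes (0.362%) and lower for 16 (0.0999%), 74 in all (0.462%), with 40 without Yijung-tang low replicate 1 and 182 without Zizyphi Fructus medium replicate 3. MT-RNR1 (log2 4.34 ± 0.42), CYP1A1 (3.25 ± 0.58), MT-RNR2 (3.11 ± 0.52) and CHAC1 (2.65 ± 0.34) had the largest increases among named genes that passed. SLC6A9 (2.41 ± 0.44), ADM2 (2.25 ± 0.32), DDIT4 (1.81 ± 0.21) and ASNS (1.77 ± 0.11) followed. Of the 24 ATF4 genes 11 passed, all upward, as did 6 of 11 transporters and 6 of 20 synthetases. TXNIP (-1.06 ± 0.12) and GABRP (-1.10 ± 0.18) passed downward. TIPARP did not pass (0.43 ± 0.12, adjusted p = 0.17).

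**Figure D5:**
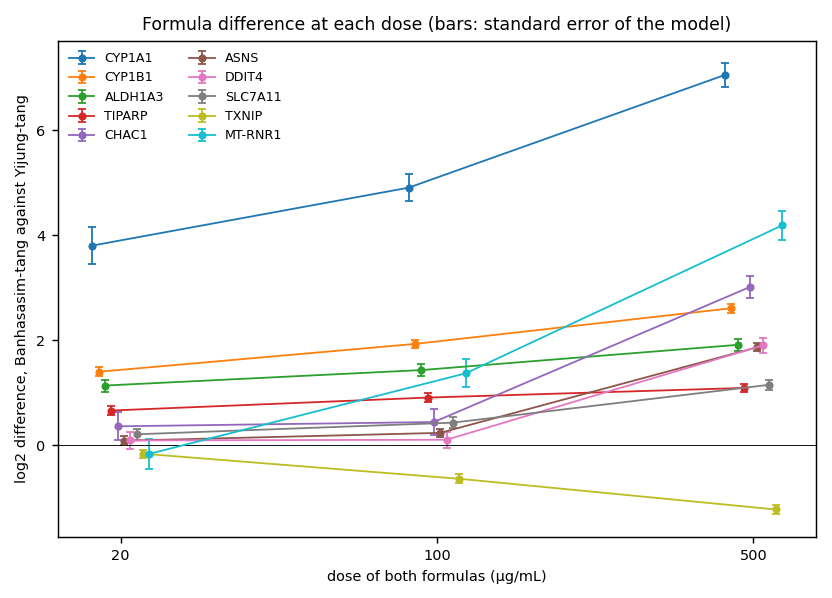
Log2 difference of Banhasasim-tang against Yijung-tang for 10 genes at 20, 100 and 500 µg/mL, with the standard error of the model as bars and points shifted sideways for legibility. CYP1A1, CYP1B1, ALDH1A3 and TIPARP lay above 0 at all 3 doses, and CHAC1, ASNS, DDIT4 and SLC7A11 lay between 0.09 and 0.45 at 20 and 100 µg/mL and between 1.15 and 3.02 at 500 µg/mL.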

How the data were processed

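Total RNA of HT29 cells (1 µg, integrity number above 7) was made into directional messenger RNA libraries and read as 100 bp pairs, per the labels' protocols. The deposited values are expected counts per gene from the authors' pipeline. STAR 2.7.3a, RSEM 1.3.3, Trim Galore 0.6.5 and FastQC 0.11.9 are listed in the submitters' processing notes with the build GRCh38 (hg38), without roles or order. The table holds 60675 gene identifiers, of which 93.2% carry a symbol in the tables used here and 94.0% are in GENCODE 29. Its other 210 per-sample columns were not analysed here. Of the values, 91% were whole, and rounding changed a library total by at most 0.00022%.

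The expected counts were rounded, and the 16022 genes that reached 0.5 CPM in 3 or more libraries entered edgeR 4.0.16 (R 4.3.3), with TMM scaling, 1 quasi-likelihood fit over 60 libraries in 25 groups (35 residual degrees of freedom, biological coefficient of variation 7.83%) and Benjamini-Hochberg adjustment over all genes at 0.05. The ± after a log2 value is its standard error from that fit. A prior count of 2 was set for the mean log2 CPM and for the check of same-numbered libraries. Fitted log2 values took edgeR's default instead. All adjusted p-values in the text come from edgeR unless DESeq2 1.42.0 is named. The Banhasasim-tang groups hold 1 library each and add nothing to the estimate of the spread. A gene recurred when Coptidis Rhizoma changed it at least 2-fold with an adjusted p under 0.05 and the formula comparison called it in the same direction. Differences in size were tested as the formula difference minus the Coptidis Rhizoma response in the same fit. Levels have counting error only as far as depth goes, and 3 counts were 0.111 CPM in Banhasasim-tang high and 0.120 to 0.129 CPM in Yijung-tang high. The share interval is Wilson's at 95%.

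The libraries compared, the 25 gene lists and the naming rule were chosen with earlier results of these data known. The naming rule took genes with a symbol whose mean log2 CPM was 1 or more. It gave the 8 largest rises and falls called, up to 4 called and 2 uncalled Coptidis Rhizoma genes per list, the 4 largest changes of opposite sign and of dose dependence in each direction, all members of lists of 5 or fewer, and CYP1A1, CHAC1, ASNS, MT-RNR1 and MT-RNR2. Genes named outside it serve as list examples. Simulated counts for the high-dose comparison over 16022 genes gave every library 1 common profile and the spread of the main fit. Changes were placed only in genes of mean log2 CPM above 1. Of these, 59.7% of 67 changed 1.5-fold, 80.6% of 67 changed 2-fold and 97% of 66 changed 4-fold were recovered, with 10 false calls. The shares do not cover genes at lower levels or a Banhasasim-tang spread unlike that of the other groups. Alternatives were DESeq2, its size factors, scaling without mitochondrial genes, no filter, library sets alone, robust moderation, a replicate block, leaving libraries out and other definitions of the Coptidis Rhizoma response.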

Additional observations from a re-analysis of the deposited data

Results flagged for a closer look

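The difference between the formulas depended on dose in 58 genes that were higher and 16 that were lower in the test of the log2 difference at 500 µg/mL minus that at 20 µg/mL (edgeR, adjusted p under 0.05). Both terms share the spread estimated from the other groups, and each rests on 1 Banhasasim-tang library. Among named genes that passed this test the largest increases were those of MT-RNR1 (4.34), CYP1A1 (3.25), MT-RNR2 (3.11) and CHAC1 (2.65). The largest decreases that passed were those of KLRC2 (-1.86), GABRP (-1.10), TXNIP (-1.06) and MTCO1P12 (-0.94). KLRC2 was at 0.904 CPM in Banhasasim-tang high, so few reads lie behind it. MTCO1P12 is a pseudogene copied from the mitochondrial gene MT-CO1, and reads could be split between them, so its level is uncertain. It stood at 32.9 CPM in Banhasasim-tang high against 65.0 and 69.2 CPM in Yijung-tang high.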

How the results depend on the processing

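The 177 higher and 75 lower genes stayed within 1.5 times of those counts with DESeq2 size factors, scaling without the mitochondrial genes, DESeq2's Wald test, robust moderation and no filter, although without a filter 113 and 38 of the same genes were called. With the library sets compared fitted alone there were 405 higher and 228 lower genes, 52 at medium and 8 at low dose, 160 dependent on dose, 3168 in the formula difference minus the Coptidis Rhizoma response, and 78 lowered genes that recurred. Without Zizyphi Fructus medium replicate 3 the counts were 412, 235, 35, 10 and 182, with 166 raised and 87 lowered genes recurring. With no filter 109 genes passed at medium dose, 69 at low dose and 144 in dose dependence, and with DESeq2's Wald test 23 passed at medium dose. Among definitions of the Coptidis Rhizoma response, a 4-fold minimum left 48 raised and 18 lowered genes recurring, no fold minimum 152 and 58, Zizyphi Fructus high as the baseline 118 and 45, and the low doses of both herbs, added after seeing the data, 5 and 1. In each case the cause was not tested. Leaving out 1 library at a time gave 108 to 412 higher and 41 to 235 lower genes, 80 to 166 and 25 to 87 recurring, 40 to 182 dependent on dose, 10 to 35 at medium and 4 to 10 at low dose, the upper ends being without Zizyphi Fructus medium replicate 3. Same-numbered libraries were checked in the Yijung-tang and Coptidis Rhizoma groups only, and deviated together weakly or not at all (Pearson r between -0.0457 and 0.129 over genes). This does not settle whether same-numbered libraries were handled together, and the main fit did not pair them. With the replicate block 166 genes were higher and 68 lower, 13 passed at medium and 4 at low dose, 69 depended on dose, and 96 raised and 32 lowered genes recurred. For 86 named genes under 10 alternatives, 803 of 860 values kept their side of the threshold, 34 lost it, 23 gained it and 0 reversed. One Banhasasim-tang library limits every formula result, since its own spread was not measured.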

Other observations

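A group of genes differed between the formulas without passing in Coptidis Rhizoma, 14 of the 177 higher genes and 8 of the 75 lower ones. The examples were chosen after their values were seen. VIPR1, a receptor for vasoactive intestinal peptide, was at 103 CPM in Banhasasim-tang high against 56.5 and 52.7 CPM in Yijung-tang high (log2 0.91 ± 0.09, adjusted p = 8e-10), beside a Coptidis Rhizoma change of 0.06. FGF19, the hormone through which the gut restrains bile acid synthesis, was at 99.3 CPM in Banhasasim-tang high against 56.7 and 60.1 CPM in Yijung-tang high (log2 0.77 ± 0.14, adjusted p = 0.00047), beside 0.02. PLIN4, a lipid droplet coat protein, was at 19.0 CPM in Banhasasim-tang high against 9.45 and 9.82 CPM in Yijung-tang high (log2 0.98 ± 0.15, adjusted p = 2e-05), beside -0.15. SLC43A1, a carrier of large neutral amino acids, was at 48.9 CPM in Banhasasim-tang high against 29.3 and 30.2 CPM in Yijung-tang high (log2 0.72 ± 0.11), beside 0.03. SLC17A4, an intestinal anion carrier, was at 0.433 CPM in Banhasasim-tang high against 1.08 and 1.68 CPM in Yijung-tang high (log2 -1.67, adjusted p = 0.0052), beside -0.02. A Coptidis Rhizoma value that did not pass does not show that the gene was unaffected by it.

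Differences at the lower doses were given for the genes called at 500 µg/mL, with no test over the group. Of the 177 higher genes 153 had a positive difference at 100 µg/mL and 117 at 20 µg/mL, with median log2 differences of 0.07, 0.12 and 0.67 at 20, 100 and 500 µg/mL. Of the 75 lower genes 61 had a negative difference at 100 µg/mL and 56 at 20 µg/mL, with medians of -0.06, -0.11 and -0.57.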
